A study of Mus musculus with 4 samples.

Results

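Imprinted genes are expressed mainly from 1 parental allele. In mouse they lie in domains, each under an imprinting control region whose DNA methylation is set in the egg or the sperm and kept in later cell divisions. Methylation of a control region silences the genes or the long noncoding RNA that start there, and in several domains the noncoding RNA in turn silences its neighbours on the same allele. Many of the genes are known for roles in growth, placenta and brain. Mbd4, the gene removed in the cells studied here, encodes a DNA repair glycosylase that binds methylated CpG and cuts out thymine or uracil where either stands opposite guanine.

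The members were 37 imprinted genes in 20 domains, taken through those transcript clusters that the platform's gene table pairs with a member symbol and no other. Of the 37 genes, 32 had such a cluster, 1 each, in 18 of the domains, out of 19938 genes measured in that way on the array. Another 2 had only a cluster shared with a second symbol, Snrpn with Snurf and Gnas with Gnasas1. H19, Kcnq1ot1 and Zrsr1 were paired with no cluster in the gene table used here and were not analysed. An array value sums the RNA of both parental alleles, so imprinting itself was not measured. RNA came from Mbd4 KO cells (2 arrays) and control cells (2 arrays). Both are CH12.F3 cells, from a B cell lymphoma line of the mouse, in medium with 6% fetal calf serum. Both had been kept for 24 hours with 3 inducers of the switch to IgA, which were IL-4 at 5 ng/ml, CD40 ligand at 25% of the volume and TGF-beta at 0.2 ng/ml. Whether a group's arrays are separate cultures, and whether the knockout is 1 clone or several, is not in the labels. The p-values therefore cover the spread from array to array alone, and that spread may be technical. A difference due to the loss of Mbd4 and one between clones cannot be told apart.

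The cluster of Mbd4 was at 6.47 and 6.49 in Mbd4 KO cells, against 8.74 and 8.77 in control cells (log2 signal), a difference of -2.28 ± 0.066 (SE) with a limma adjusted p of 0.0002. The place of its probes relative to the deleted part was not known here. Markers of the B lineage fitted the label of the cell line, with 7 of 7 measured genes above the upper quartile of every array (10.4 to 12.7 in Mbd4 KO cells and 10.1 to 12.6 in control cells). None of the 4 T lineage, 4 fibroblast, 2 placental and 3 neural markers measured was above it, nor was the 1 erythroid marker, while 1 of 4 myeloid markers, Cd68, was. Limma called 0 of the 25 marker genes between the groups, with 6 at an unadjusted p under 0.05. Over all clusters it called 1.39%, and 13.8% had an unadjusted p under 0.05, so 0 calls among 25 do not show that the markers are unchanged.

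Most imprinted genes gave low signals in both groups. On all 4 arrays 21 of 32 members (65.6%) lay below the array's median over all clusters, which was between 6.94 and 6.98, whereas 45.1% of all clusters with 1 gene symbol did. Below the lower quartile, 5.63 to 5.64, were 5 members throughout, namely Usp29, a ubiquitin protease gene, Zdbf2, a zinc finger gene, Mkrn3, a ubiquitin ligase gene, Asb4, an ankyrin repeat gene, and Dcn, the gene of the matrix proteoglycan decorin. Another 11 lay between the lower quartile and the median, and 6 between the median and the upper quartile: Peg12, Cdkn1c, Inpp5f, Dlk1, Mcts2 and Grb10. Impact, a regulator of the amino acid starvation kinase GCN2, was the 1 member above the upper quartile (9.11 to 9.15) on all 4 arrays, and the remaining 9 crossed a quartile between arrays. Quartiles taken over clusters with 1 symbol put 10 members below the lower quartile and left Impact as the 1 above the upper. Probe response enters each cluster's signal, so a place among the quartiles is not an amount of RNA. In bulk RNA, fewer cells of a type and less RNA per cell cannot be told apart.

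**Figure D1:**
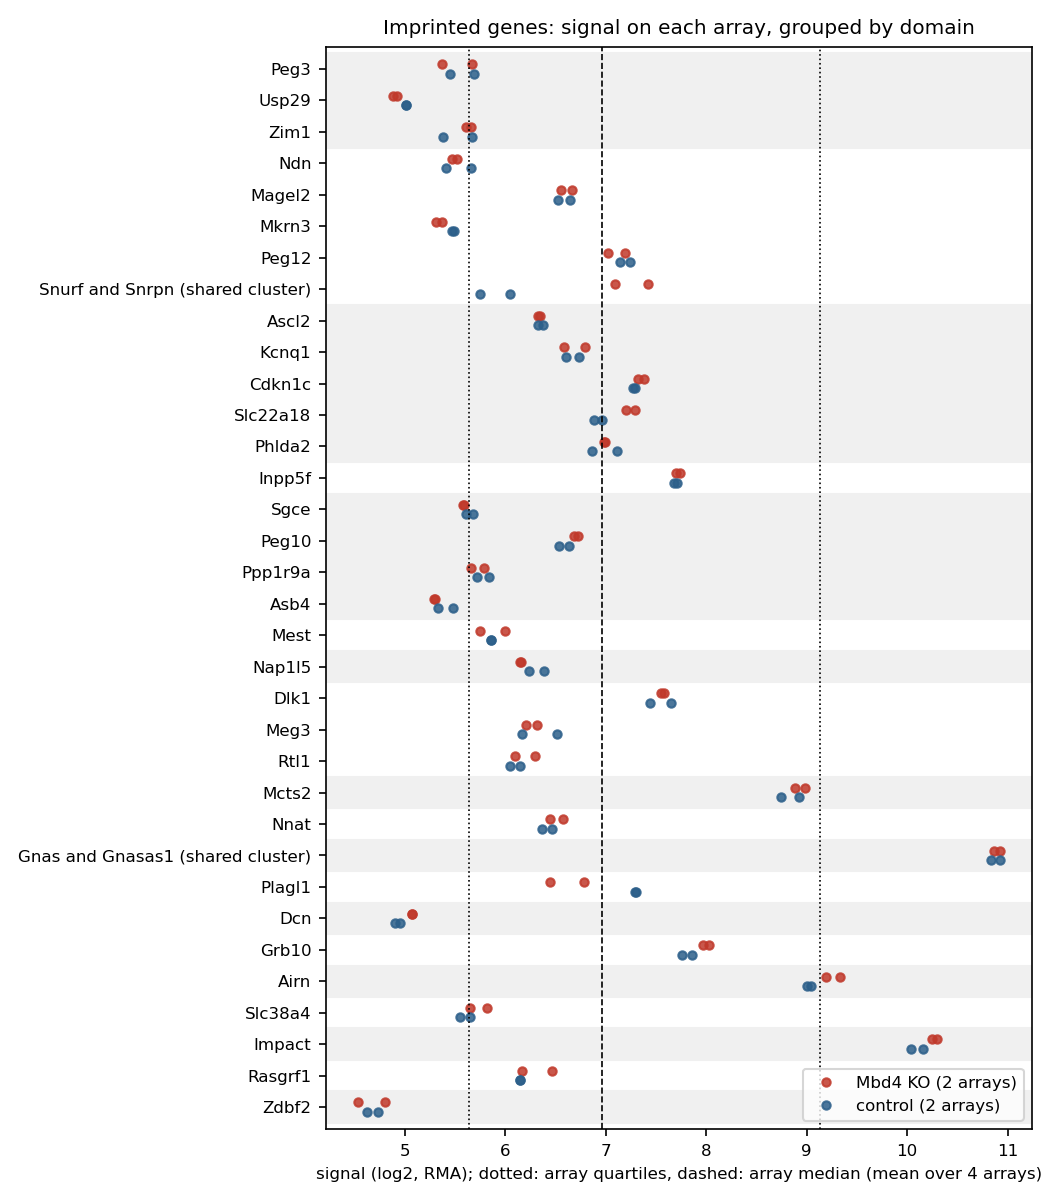
Log2 signal of each imprinted gene on the 2 Mbd4 KO arrays (red) and the 2 control arrays (blue), with genes grouped by domain in shaded and white bands. Vertical lines mark the array quartiles (dotted) and median (dashed), averaged over the 4 arrays; 21 of the 32 genes with their own cluster lie left of the median on every array.

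Between Mbd4 KO and control cells the differences of the imprinted genes were small. Of the 32 members 18 had values above zero and 14 below, with a median difference of 0.022 (log2), against 0.021 over all 21789 clusters tested. The median size without sign was 0.095 for members and 0.082 over all clusters. In 29 of 32 members the difference was under 0.2 in size. The 3 others were Plagl1, Slc22a18 and Airn. At an adjusted p of 0.05 (Benjamini-Hochberg, over every cluster tested) limma called 0 of the 32, and it called 1.39% of all clusters. It called 1 of them, Plagl1, with an intensity trend in its prior or without the dimmest 30% of clusters. At an unadjusted p under 0.05, 4 members passed (12.5%): Plagl1, Slc22a18, Airn and Grb10. The share over all clusters was 13.8%. The groups were fully apart in 15 members (46.9%), 9 higher and 6 lower in Mbd4 KO cells, against 45.0% of all clusters.

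The standard errors of the members are limma's moderated ones, which are drawn toward a common spread, so their similar size is partly set by the method. SE values ran from 0.066 to 0.129 with a median of 0.082. The 95% interval of the difference lay within 0.5 of zero on the log2 scale for 31 of 32 members, Plagl1 being the exception, and within 1 for all 32. Genes known in mouse for expression from the paternal allele (21 tested, 12 above zero, median 0.020) and from the maternal allele (11 tested, 6 above zero, median 0.023) had nearly the same median. Groups were apart in 10 of the 21 and in 5 of the 11, near the 45.0% of all clusters.

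**Figure D2:**
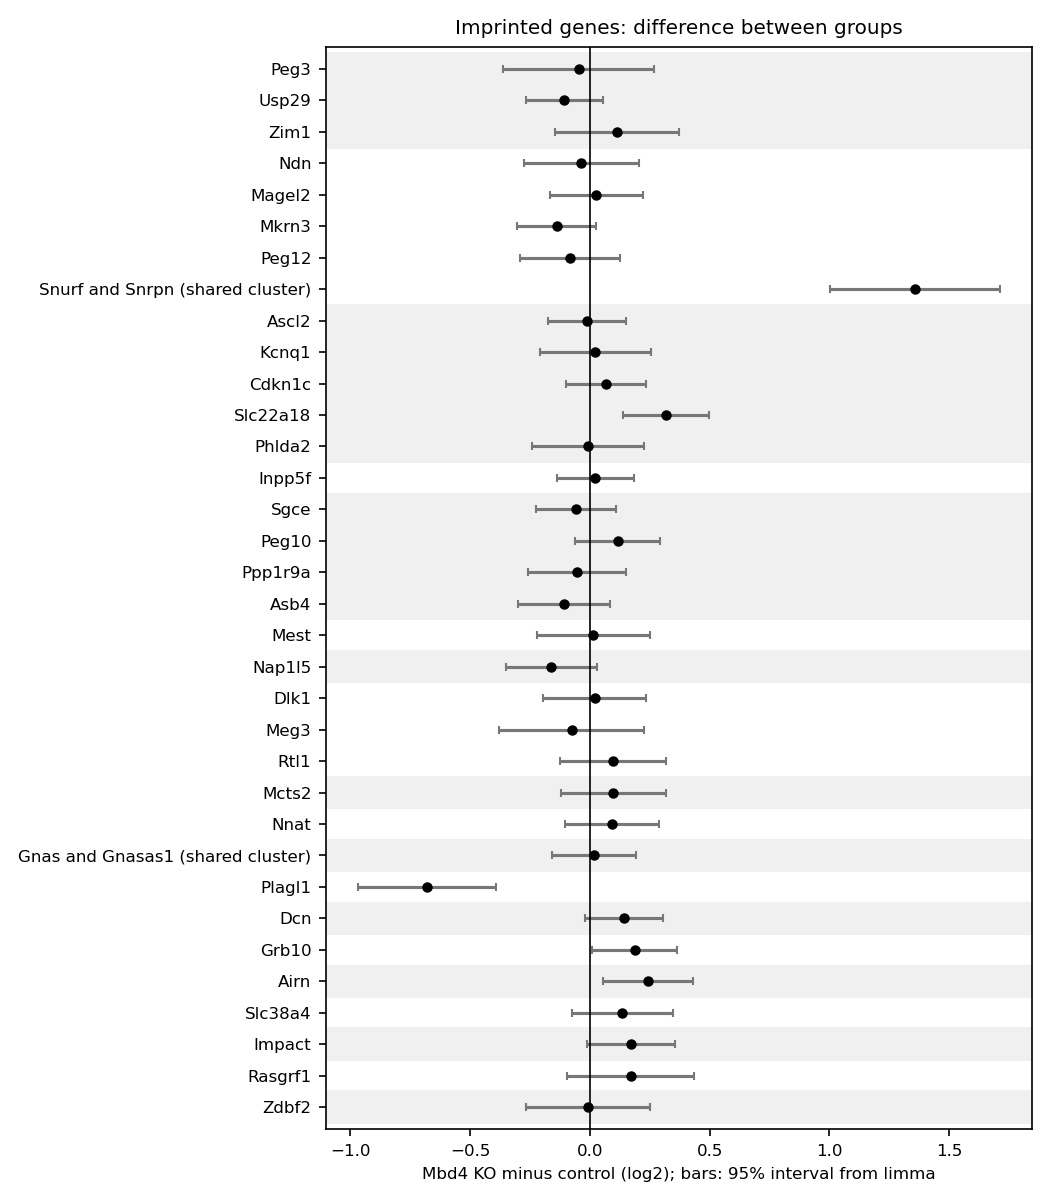
Difference in log2 signal, Mbd4 KO minus control, for each imprinted gene in its domain band, with 95% intervals from limma (2 arrays a group). Nearly all points lie within 0.2 of zero, while Plagl1 lies at -0.68 and the cluster shared by Snurf and Snrpn, which is outside the rule for members, at 1.36.

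Plagl1 had the largest difference of the 32. It encodes a zinc finger transcription factor that restrains proliferation, and in mouse its promoter with the imprint is silenced on the maternal allele. Its signal was 6.44 and 6.78 in Mbd4 KO cells, against 7.29 and 7.30 in control cells. The groups did not overlap, and the Mbd4 KO arrays differed more from each other than the control arrays. The difference was -0.68 ± 0.117 (SE; 95% interval -0.967 to -0.392), 1.60-fold lower in Mbd4 KO cells, with a limma adjusted p of 0.0666, so it was not called. It was called with an intensity trend in limma's prior (adjusted p = 0.00557) and without the dimmest 30% of clusters (0.0276). The adjusted p was 0.084 with a block for the replicate number, 0.254 over all clusters of the table and 0.457 without variance moderation. The difference was -0.51 without Mbd4 KO array 1 and -0.85 without Mbd4 KO array 2. None of the 20 nearest measured genes, 10 on each side, was called, and their median difference was 0.013.

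The cluster shared by Snurf and Snrpn differed more than any member with a cluster of its own. Snrpn encodes the SmN protein of spliceosomal snRNPs and Snurf a short protein from the same transcript, which starts at the control region of the Prader-Willi domain on the paternal allele. The cluster read 7.10 and 7.42 in Mbd4 KO cells, against 5.75 and 6.05 in control cells. Both Mbd4 KO arrays were above the array median, and both control arrays were between the lower quartile and the median. The difference was 1.36 ± 0.143 (SE; 95% interval 1.00 to 1.71), 2.56-fold higher in Mbd4 KO cells. This cluster lies outside the rule of 1 symbol, was tested in an added fit over clusters with 1 or more symbols, and was singled out after its values had been seen. There its limma adjusted p was 0.0197, while it was 0.164 over all 35556 clusters. With 1 array left out the difference was 1.20 to 1.52 and the adjusted p 0.0532 to 0.108. Such a fit has 1 residual degree of freedom and takes the spread of the lone array from the other group, and over the clusters with 1 symbol such fits called 65 to 75 in place of 302, so the lost call does not show that 1 array carries the difference.

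The Snord116 clusters of the same domain lay on the same side. Snord116 genes are repeated small nucleolar RNAs that are processed from introns of the long transcript running on from Snrpn. The gene table pairs 24 clusters with the symbols Snord116l2, Snord116l1 and Gm26504 together, and these held 6 distinct sets of values, 1 of them shared by 19 clusters, so they are not independent readings. Over the 6 sets the signals were 6.25 to 6.82 in Mbd4 KO cells and 5.69 to 6.08 in control cells. The groups did not overlap in any of the 6, with differences of 0.43 to 0.89 (median 0.73). Among all clusters tested, 45.0% had groups that did not overlap. The set held by 19 clusters was at 6.62 and 6.75 in Mbd4 KO cells, against 6.05 and 5.83 in control cells. These clusters too were picked after their values had been seen and are given without a test.

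The other genes of the domain had differences near zero. Ndn (necdin) and Magel2 encode MAGE family proteins, Mkrn3 a ubiquitin ligase and Peg12 a protein of the Frat family, and all are known in mouse for expression from the paternal allele. Their differences were -0.04 for Ndn, 0.03 for Magel2, -0.14 for Mkrn3 and -0.08 for Peg12, each with a 95% interval that includes zero. The upper ends of these intervals ran from 0.03 to 0.22. Mkrn3, at 5.37 and 5.32 in Mbd4 KO cells against 5.49 and 5.48 in control cells, was the 1 of these 4 whose groups did not overlap. The difference between the shared cluster and these genes was not tested. The 20 nearest measured genes around the domain had a median of 0.060 and none was called.

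**Figure D3:**
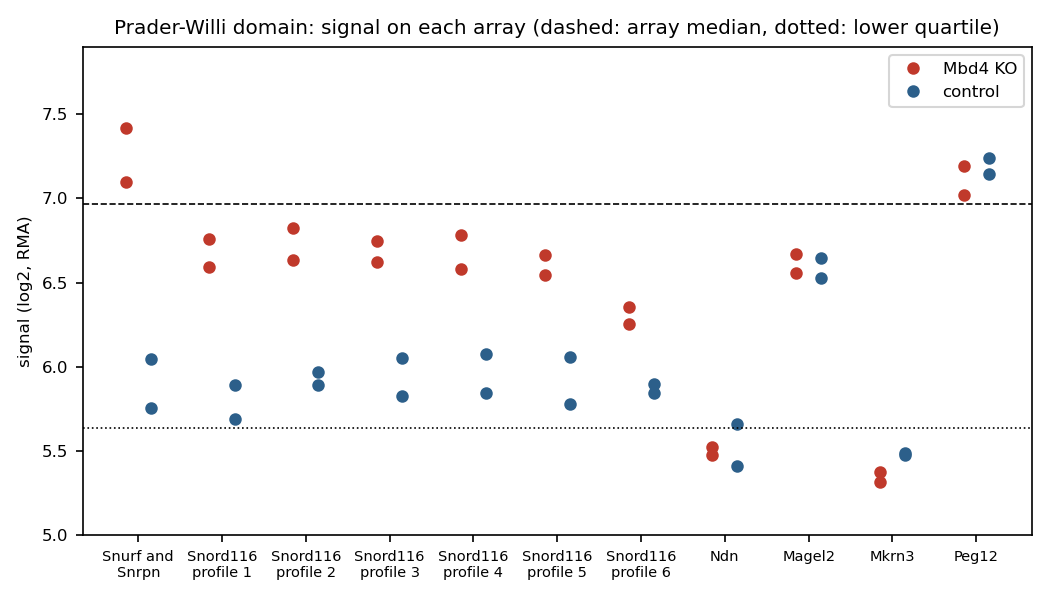
Log2 signal in the Prader-Willi domain on each Mbd4 KO array (red) and control array (blue) for the cluster shared by Snurf and Snrpn, the 6 distinct sets of values of the Snord116 clusters, and the 4 members with clusters of their own. The Snurf and Snrpn cluster and the Snord116 sets are higher on both Mbd4 KO arrays, whereas in Ndn, Magel2 and Peg12 the groups overlap. Groups do not overlap in 45.0% of all clusters tested.

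Start sites are shown for genes of the Prader-Willi, Plagl1 and Igf2r-Airn domains, and they differ in CpG content. Windows of Snrpn, Plagl1, Airn and Igf2r, 250 bases before to 50 after the RefSeq start (build GRCm38.p6), are printed 5′ to 3′ with CG dinucleotides in capitals. Of 4 Snrpn windows in RefSeq, with 7, 4, 3 and 2 CpGs, the one printed, chr7:60005150-60005449 on the minus strand, holds 7 and was taken because it is annotated as a start of Snurf as well. The Plagl1 window, chr10:13090582-13090881 on the plus strand, holds 26. Airn starts within Igf2r on the opposite strand, and its window, chr17:12741061-12741360 on the plus strand, holds 3. The Igf2r window, chr17:12769657-12769956 on the minus strand, holds 34.
Snrpn: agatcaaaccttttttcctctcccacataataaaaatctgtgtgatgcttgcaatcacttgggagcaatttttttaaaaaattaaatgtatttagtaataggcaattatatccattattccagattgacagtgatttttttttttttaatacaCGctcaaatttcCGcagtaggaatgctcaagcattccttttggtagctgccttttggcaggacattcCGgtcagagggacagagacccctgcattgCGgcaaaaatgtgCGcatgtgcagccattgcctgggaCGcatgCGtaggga
Plagl1: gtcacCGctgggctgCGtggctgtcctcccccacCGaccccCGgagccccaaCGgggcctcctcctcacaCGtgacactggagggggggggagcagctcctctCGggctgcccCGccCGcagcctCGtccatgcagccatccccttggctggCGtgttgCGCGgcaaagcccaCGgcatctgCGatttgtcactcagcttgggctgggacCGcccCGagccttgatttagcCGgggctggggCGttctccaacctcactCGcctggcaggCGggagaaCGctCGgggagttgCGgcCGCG
Airn: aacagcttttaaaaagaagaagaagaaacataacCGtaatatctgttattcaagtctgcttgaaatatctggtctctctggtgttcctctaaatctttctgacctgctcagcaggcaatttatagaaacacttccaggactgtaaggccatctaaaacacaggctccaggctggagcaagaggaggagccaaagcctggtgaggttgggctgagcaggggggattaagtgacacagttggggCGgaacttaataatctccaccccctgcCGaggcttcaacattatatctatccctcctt
Igf2r: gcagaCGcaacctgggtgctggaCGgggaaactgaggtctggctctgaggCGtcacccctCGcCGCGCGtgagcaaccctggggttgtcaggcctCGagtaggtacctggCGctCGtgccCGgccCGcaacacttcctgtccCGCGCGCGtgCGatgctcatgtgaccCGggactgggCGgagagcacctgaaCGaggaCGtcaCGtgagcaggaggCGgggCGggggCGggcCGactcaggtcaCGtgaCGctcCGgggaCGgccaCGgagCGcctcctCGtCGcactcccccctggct

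Across members, 44 such windows of 29 genes were matched, with a median of 13 CpGs, against 7 over all 32851 windows of the RefSeq table. At least 10 CpGs were found in 63.6% of the members' windows and in 43.5% of all windows, and at least 20 in 27.3% and in 26.5%. The hexamer TGCCGC, the core of the motif bound on methylated DNA by ZFP57, a protein that guards imprints in the early embryo, was searched on both strands. It occurred in 11 windows of 10 members (25%), against 11.6% of all windows, and the Plagl1 window and the printed Snrpn window hold it, while the 3 other Snrpn windows do not. The hexamer itself holds a CpG, and the members' windows have more CpGs. Windows of the same gene can overlap, as for Mest, and the shares were not compared by a test. A match is a run of letters and not a shown binding site, and methylation was not measured.

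In the Igf2r-Airn domain the member Airn was not called, while its protein-coding partner Igf2r was called lower. Airn is the paternally expressed noncoding RNA that silences Igf2r, the gene of the cation-independent mannose 6-phosphate and IGF2 receptor, in cis in mouse. Airn was at 9.20 and 9.33 in Mbd4 KO cells, against 9.00 and 9.04 in control cells. Its groups did not overlap, with a difference of 0.24 ± 0.077 (SE) that was not called (limma adjusted p = 0.246). Igf2r was at 7.33 and 7.48 in Mbd4 KO cells, against 9.60 and 9.59 in control cells. It fell, with a difference of -2.19 ± 0.078 (SE; limma adjusted p = 0.00026). The transcripts overlap on opposite strands and no probe positions were used here, so which transcript each cluster reads was not tested. Any link between the differences of Airn and Igf2r was not tested either. Mas1 and Slc22a2, further genes of the region, differed by 0.12 and 0.11 and were not called. Among the 20 nearest measured genes 1 was called higher (1700010I14Rik) and 1 lower (Gpr31b), with a median of 0.054.

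Genes of the domains on chromosome 7 near the control regions of H19 and Kcnq1 gave 1 of the 3 larger differences. Slc22a18 encodes an organic cation transporter family protein and is known for expression from the maternal allele. It was at 7.20 and 7.29 in Mbd4 KO cells, against 6.89 and 6.97 in control cells, and the groups did not overlap. The difference was 0.32 ± 0.073 (SE; limma adjusted p = 0.133) and was not called. The 4 other members there lay within 0.07 of zero. Cdkn1c, the cell cycle inhibitor p57, differed by 0.07, Kcnq1, a potassium channel gene, by 0.02, Ascl2, a helix-loop-helix factor gene of the placenta, by -0.01, and Phlda2, a gene restraining placental growth, by -0.01. Igf2, the growth factor gene that shares the H19 control region, was not called at -0.04, and Th, the tyrosine hydroxylase gene, was not called at 0.25.

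Grb10, an adaptor gene that restrains signalling from the insulin and IGF1 receptors, was at 7.96 and 8.03 in Mbd4 KO cells, against 7.76 and 7.86 in control cells. The groups did not overlap and the difference of 0.19 ± 0.073 (SE) was not called (limma adjusted p = 0.336). Its neighbour Ddc, the aromatic amino acid decarboxylase gene, lay on the other side at -0.32 (adjusted p = 0.107). Impact, at 10.24 and 10.30 in Mbd4 KO cells against 10.04 and 10.16 in control cells, differed by 0.17 (adjusted p = 0.388).

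Nap1l5, a small retrogene within an intron of Herc3, was at 6.16 and 6.15 in Mbd4 KO cells, against 6.39 and 6.24 in control cells. Its difference of -0.16 ± 0.078 (SE) was not called (limma adjusted p = 0.440). Herc3, the ubiquitin ligase gene around it, fell to 8.52 and 8.53 in Mbd4 KO cells, against 9.02 and 9.12 in control cells, a difference of -0.55 ± 0.071 (SE; limma adjusted p = 0.0330). Over all clusters of the table its adjusted p was 0.187. With 1 array left out the difference was -0.60 to -0.50 and the adjusted p 0.121 to 0.185, in fits where the spread comes from the other group alone. Herc3 and Nap1l5 overlap, so which transcript each cluster reads was not tested. Of the neighbours, Hpgds, the prostaglandin D synthase gene, was called higher.

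**Figure D4:**
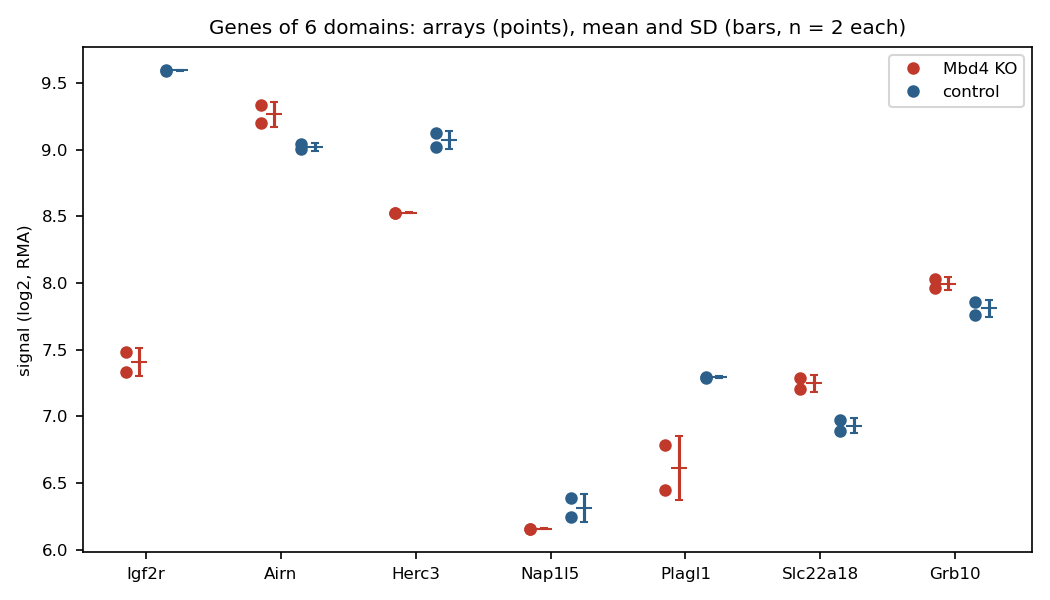
Log2 signal on each array (points) with the mean and SD (n = 2 each) for the members Airn, Nap1l5, Plagl1, Slc22a18 and Grb10 and for Igf2r and Herc3, which share domains with Airn and Nap1l5. Mbd4 KO (red) is left of control (blue). The groups do not overlap in any of the 7 genes, as in 45.0% of all clusters. The 7 include the 4 members with a limma unadjusted p under 0.05 and the 2 partner genes called. Their separation therefore follows in part from the choice of genes.

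The Dlk1-Dio3 domain on chromosome 12 held 3 members and many miRNA genes. Dlk1 encodes a Notch ligand-like membrane protein and Rtl1 a retrotransposon-derived protein, both from the paternal allele. Meg3 is a long noncoding RNA from the maternal allele, whose strand also carries miRNAs antisense to Rtl1. Dlk1 was at 7.58 and 7.55 in Mbd4 KO cells, against 7.65 and 7.44 in control cells, a difference of 0.02. Meg3 differed by -0.08 and Rtl1 by 0.10, and the groups overlapped in all 3. Rian, the next noncoding RNA of the maternal strand, and Dio3, the deiodinase gene, differed by 0.23 and -0.02, and neither was called.

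Of 40 miRNA clusters in the domain limma called 0, against 1.39% of all clusters. At an unadjusted p under 0.05 were 5, against 13.8% of all clusters. Their differences ran from -0.17 to 0.31 with a median of 0.039. Above zero lay 27 of the 40, against 57.6% of all clusters. The highest were Mir543 (0.31) and Mir127, and the lowest was Mir495 (-0.17). Mir543 and Mir495 lay below the lower quartile on all 4 arrays. The groups were apart in 15 (37.5%), below the 45.0% of all clusters. On all 4 arrays 23 lay below the lower quartile and 0 above the upper. Precursors and longer transcripts over them cannot be told apart by these clusters, since the RNA was labelled as whole transcripts, and mature miRNA was not measured. The labels name both total and polyA RNA, so whether small RNAs were in the labelled RNA is not known, for these clusters and for those of Snord116.

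Inside the span of Rtl1 lie 8 of the 40, of which Mir434 and Mir136 were below the lower quartile on all 4 arrays. Mir127 was at 7.18 and 6.97 in Mbd4 KO cells, against 6.79 and 6.74 in control cells, and differed by 0.31 ± 0.090 (SE; limma adjusted p = 0.224). Mir136 was at 3.949 and 3.996 in Mbd4 KO cells, against 3.74 and 3.77 in control cells, and differed by 0.22 ± 0.067 (SE; adjusted p = 0.240). Of the miRNAs inside the span, Mir127 and Mir136 alone had groups that did not overlap, against 45.0% of all clusters. Their mean differences were over 0.2, while the groups overlapped in Mir431 (-0.16) and Mir434 (-0.08), also inside the span. Their 3p and 5p products (RefSeq, build GRCm38.p6, chromosome 12, plus strand) are printed 5′ to 3′ with the seed, bases 2 to 8, in capitals, and none of the 8 shares a seed with another.
mmu-miR-431-5p: uGUCUUGCaggccgucaugca
mmu-miR-431-3p: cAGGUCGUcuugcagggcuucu
mmu-miR-127-5p: cUGAAGCUcagagggcucugau
mmu-miR-127-3p: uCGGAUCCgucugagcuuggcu
mmu-miR-434-5p: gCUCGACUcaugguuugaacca
mmu-miR-434-3p: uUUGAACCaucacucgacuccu
mmu-miR-136-5p: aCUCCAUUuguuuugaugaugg
mmu-miR-136-3p: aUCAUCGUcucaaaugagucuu

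**Figure D5:**
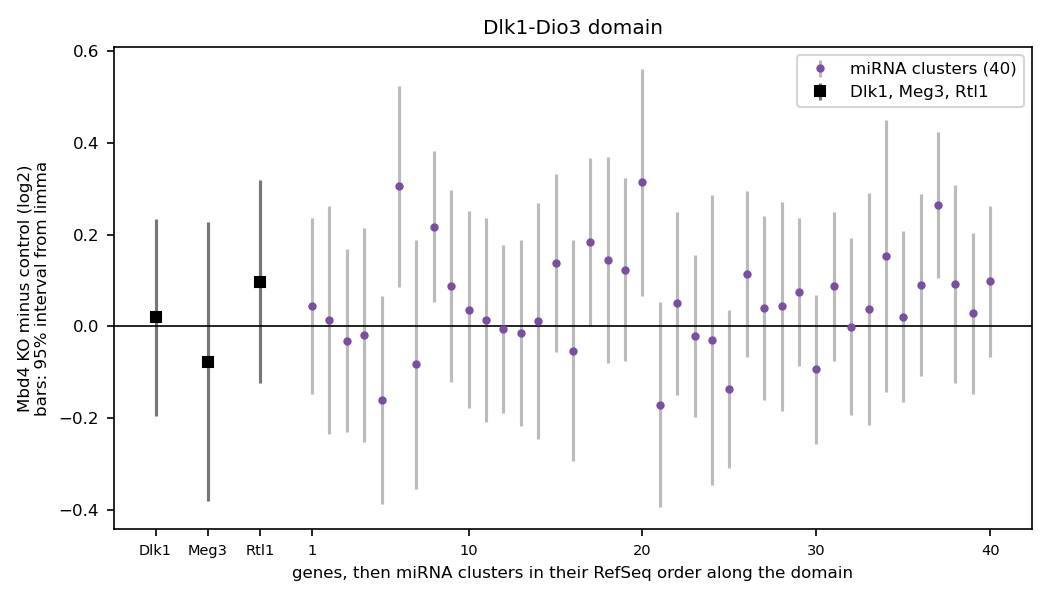
Difference in log2 signal, Mbd4 KO minus control, with 95% intervals from limma for Dlk1, Meg3 and Rtl1 (squares) and for the 40 miRNA clusters of the domain (circles) in their order along the chromosome. Points lie on both sides of zero, between -0.17 and 0.31.

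In the Peg10 domain on chromosome 6, Peg10, a retrotransposon-derived gene of the placenta, differed by 0.12, Sgce, the epsilon-sarcoglycan gene, by -0.06, Ppp1r9a, the neurabin gene, by -0.05, and Asb4 by -0.11. The groups were apart in 3 of these 4, where 45.0% of all clusters are, and none was called. Pon3, a paraoxonase gene beside them, was at -0.26 and not called. In the Peg3 domain on chromosome 7, Peg3, a zinc finger gene, differed by -0.05, Usp29 by -0.11, and Zim1, a zinc finger gene known for expression from the maternal allele, by 0.11. Usp29 alone of the 3 had groups apart, at 4.89 and 4.92 in Mbd4 KO cells against 5.01 and 5.01 in control cells.

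The remaining members, each alone in its domain, were not called. Mest, a hydrolase family gene, differed by 0.01, Inpp5f, a phosphoinositide phosphatase gene, by 0.02, and Zdbf2 by -0.01. Mcts2, a retrogene copy of Mcts1 whose probes may also read that gene, differed by 0.10, and Nnat, the neuronatin gene, by 0.09. Slc38a4, an amino acid transporter gene of liver and placenta, differed by 0.14, Dcn by 0.14, and Rasgrf1, a Ras exchange factor gene of the brain, by 0.17. Rasgrf1 was at 6.47 and 6.17 in Mbd4 KO cells, against 6.15 and 6.15 in control cells, so that 1 Mbd4 KO array carried most of its difference. The cluster shared by Gnas, the stimulatory G protein alpha gene, and Gnasas1 was above the upper quartile, at 10.92 and 10.86 in Mbd4 KO cells against 10.83 and 10.92 in control cells, and differed by 0.02.

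Among the nearest measured genes of each domain, 10 on each side where RefSeq gave them, limma called some. Their share was not compared with the 1.39% called among all clusters. Besides those named above they were Samd9l beside Peg10, Evl beside the Dlk1-Dio3 domain, Adamts7 beside Rasgrf1, and Ctla4, Klf7 and Ccnyl1 beside Zdbf2, all lower in Mbd4 KO cells. None was called around the other domains that were measured.

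A list of 51 other genes in or beside these domains had 40 measured by a cluster of their own. Limma called 2 of them (5%, against 1.39% of all clusters), Igf2r and Herc3, both lower, and the median difference was -0.024. The groups were apart in 20 of the 40 (50%, against 45.0% of all clusters). A list of 39 genes that set, keep, read or remove methylation at imprints, or bind there, had 37 measured. Of these 37, 1 was called higher and 0 lower, with a median of 0.004 (2.7% called, against 1.39% of all clusters). Groups were apart in 17 (45.9%), against 45.0% of all clusters. Both lists were chosen with earlier results of these data known, so their shares cannot serve as a test.

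The call among these regulators was Tet1, a dioxygenase that oxidises methylated cytosine. It was at 7.81 and 7.93 in Mbd4 KO cells, against 7.36 and 7.35 in control cells, a rise of 0.52 ± 0.073 (SE; limma adjusted p = 0.0413). Its other 2 clusters differed by 0.50 (adjusted p = 0.0462) and 0.25 (0.221), and over all clusters of the table its adjusted p was 0.187. With 1 array left out the difference was 0.46 to 0.57 and the adjusted p 0.136 to 0.203. Dnmt3l, the cofactor of methylation in germ cells, was at 6.11 and 6.21 in Mbd4 KO cells, against 5.68 and 5.73 in control cells, and its difference of 0.45 was not called (adjusted p = 0.0524). Of the other Tet genes, Tet2 differed by 0.26 and Tet3 by -0.02, and neither was called. The maintenance methyltransferase gene Dnmt1 (0.12), Uhrf1 (-0.01), which guides it, and the imprint guardians Zfp57 (0.12), Trim28 (0.03) and Zfp445 (0.18) were not called.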

How the data were processed

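Expression was measured on 4 Affymetrix whole-transcript arrays, 2 of Mbd4 KO cells and 2 of control cells, with groups taken from the array titles. The authors deposited log2 signals, 1 for each array and transcript cluster, and used RMA, as the submitters' processing notes list it. No version or settings of RMA were stated there. RMA corrects background, normalizes by quantiles and summarises probes. No raw signal was used, so signal over background is unknown. The log2 scale was read from the values, which ran from 2.69 to 14.7.

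GEO's platform annotation, a table that may be out of date, paired 21789 of 35556 clusters with 1 symbol, 1621 with several and 12146 with none. The clusters with 1 symbol were fitted in R 4.3.3 with lmFit and eBayes of limma 3.58.1 (no trend, not robust, 2 residual degrees of freedom), with two-sided p-values, adjusted over them by Benjamini-Hochberg, and a threshold of 0.05. SE and intervals are limma's moderated ones. Of a gene's several clusters the one with the highest mean stood for it. With 2 arrays a group an exact two-sided permutation test can give no p below 0.333. Neighbours (10 each side) and start sites came from RefSeq (GRCm38.p6) and figures from matplotlib 3.10.9.

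The members and lists were chosen with earlier results of these data known. The genes named are all members, Mbd4, Igf2r, and in the lists of partners and regulators those past the threshold and the 2 largest differences; other genes named from these lists, the neighbours, the miRNAs, the Snord116 clusters and the shared clusters were chosen after their values were seen. Alternatives were a block for the replicate number, leaving out each array, an intensity trend or robust prior, dropping the dimmest 30% of clusters, cyclic loess or quantile normalization, no moderation, all clusters, and an adjusted p of 0.1. The fit over clusters with 1 or more symbols was chosen after seeing the data.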

Additional observations from a re-analysis of the deposited data

How the results depend on the processing

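The median difference of the imprinted genes, 0.022, ran from -0.006 (without Mbd4 KO array 1) to 0.056 (without control array 1), and was -0.00075 with cyclic loess, so its sign is not settled. The count of imprinted genes past the threshold, 0, was 1 with an intensity trend, 1 without the dimmest 30% of clusters and 1 at an adjusted p of 0.1, and Plagl1 was that gene each time; with no other alternative was any called. Differences of 13 of the 32 members, none of them called, turned sign in at least 1 setting, so their directions are not settled, and 19 kept theirs. The 302 clusters called over the table were 159 with the replicate block, 65 to 75 with 1 array left out, 1121 with a trend, 640 without the dimmest 30%, 0 without moderation of the variance and 22 over all 35556 clusters. The 2 partner genes called were 1 with the block, 1 to 1 with 1 array left out, 0 without moderation, 1 over all clusters and 3 with a trend. The 1 regulator gene called was 0 with the block, 0 to 0 with 1 array left out, 2 with a trend (Tet1 and Dnmt3l), 0 without moderation and 0 over all clusters. With the block the adjusted p of Herc3 was 0.0641 and that of Tet1 0.0764, and that of the Snurf and Snrpn cluster was 0.00798. Without moderation Igf2r (adjusted p = 0.247), Mbd4 (0.153) and the Snurf and Snrpn cluster (0.387) also missed the threshold, with 2 residual degrees of freedom. The labels number the arrays 1 and 2 in each group without saying that a number marks a shared culture or day. The deviations of same-numbered arrays correlated at 0.069, over 2 pairs, so the block is given here only. No depth applies to arrays, and their number limits the precision.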
